A study of Rattus norvegicus with 6 samples.

Results

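Activity-induced immediate early genes outside the AP-1 family were followed in sensory neurons taken from the L1-L2 dorsal root ganglia (DRGs), in the strain known as spontaneously hypertensive rats (SHRs). The set holds 10 genes: Egr1, Egr3, Nr4a1, Nr4a2, Nr4a3, Npas4, Arc, Homer1, Ier2 and Btg2. Several of them are widely used as readouts of recent neuronal activity, while Ier2 and Btg2 are induced early in many cell types. All 10 were found by gene name among the 25689 genes of the count table. Each name had 1 row, and all 10 genes were among the 14919 genes with enough counts to be tested.

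RNA was sequenced in 3 samples from SHRs whose perirenal adipose tissue had been removed (PRATA) and in 3 samples from sham-operated SHRs. All rats are labelled wild type in genotype, with an age of 6 to 8 weeks, whereas the study's methods give 12 weeks at purchase. Neurons were isolated 4 weeks after the operation. The ganglia were digested with collagenase and then trypsin, the cells were plated for 5 hours, and neurons were flushed off before the more adherent glia, so the fractions can still hold glia and other ganglion cells. All 6 samples went through this handling, and no undigested or unplated ganglia are among them, so the part of the handling in the level of any immediate early gene was not tested. The labels do not say whether a sample is 1 rat or a pool, and p-values then measure only the spread between these samples.

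Immediate early genes are switched on within minutes of a stimulus, without new protein synthesis, by factors such as CREB and SRF that wait on their promoters. In neurons, calcium entry and the ERK pathway link membrane activity to these factors, while growth factors, stress and tissue injury can use the same route in many cell types. The first wave holds transcription factors and a few synaptic proteins, and the transcription factors then drive a slower wave of genes such as neurotrophins and neuropeptide precursors. In DRG neurons, members of the first wave are used to mark recently active sensory neurons, and the study stained ARC protein together with CGRP in these ganglia. The comparison asks whether their transcripts differed between PRATA and sham 4 weeks after the operation.

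Promoter sequences show which of the known stimulus-response elements lie next to these genes. RefSeq gave a promoter window for 7 of the 10 genes and none for Arc, Egr3 and Nr4a3. Each window spans 250 bases before to 50 bases after the start in build GRCr8. The promoters of Nr4a1, Ier2 and Btg2 are printed up to the start because they hold the longest matches to elements bound by CREB and EGR proteins. Nr4a1 lies at chr7:134259888-134260137 on the plus strand, Ier2 at chr19:40399123-40399372 on the plus strand and Btg2 at chr13:48087691-48087940 on the minus strand. Capitals mark matches, on either strand, to the cAMP response element TGACGTCA, the related element TGCGTCA and the EGR site GCGNGGGCG.
Nr4a1: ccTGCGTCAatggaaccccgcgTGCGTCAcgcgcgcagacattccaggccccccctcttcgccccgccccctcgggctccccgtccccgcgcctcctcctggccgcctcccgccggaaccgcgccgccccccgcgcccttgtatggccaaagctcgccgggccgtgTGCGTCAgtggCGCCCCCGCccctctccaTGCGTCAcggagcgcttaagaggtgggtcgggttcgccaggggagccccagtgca
Ier2: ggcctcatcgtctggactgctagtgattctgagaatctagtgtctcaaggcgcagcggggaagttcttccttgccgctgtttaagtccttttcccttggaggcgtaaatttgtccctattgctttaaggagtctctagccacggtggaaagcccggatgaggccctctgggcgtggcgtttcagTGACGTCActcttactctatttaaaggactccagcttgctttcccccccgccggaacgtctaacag
Btg2: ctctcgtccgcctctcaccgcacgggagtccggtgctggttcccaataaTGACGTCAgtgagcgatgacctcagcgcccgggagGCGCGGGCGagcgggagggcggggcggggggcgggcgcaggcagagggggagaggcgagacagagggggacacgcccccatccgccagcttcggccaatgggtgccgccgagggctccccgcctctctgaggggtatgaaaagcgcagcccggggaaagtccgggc

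The full cAMP response element was found in 2 of the 7 windows, those of Ier2 at 66 bases and Btg2 at 201 bases before the start, and in 1.83% of all 33469 RefSeq promoters of the same length. Its half-site TGACG lay in 5 of 7 windows (Egr1, Nr4a1, Nr4a2, Ier2 and Btg2), against 21.2% of all promoters. A full element holds the half-site on both strands, and TGCGTCA holds it on the opposite strand, so these matches overlap. Nr4a1 carried TGCGTCA 4 times, at 248, 228, 84 and 55 bases before the start, an element that 1.9% of promoters hold and that was searched after this promoter had been read. An EGR site was found in Nr4a1 and Btg2, against 4.98% of promoters. The CArG box bound by SRF was found in the Egr1 window alone, at 105 and 83 bases before the start, against 1.64% of promoters. The MEF2 box, held by 0.565% of promoters, and the NR4A element AAAGGTCA, held by 1.43%, matched none of the 7 windows, which says only that these letters are not in them. The letters TATAAA matched Homer1 alone, on the opposite strand at 223 bases before the start, against 14.2% of promoters on either strand. A match describes the sequence and is not evidence of binding.

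Total counts lay between 8129162 and 12892124 in the PRATA samples and between 5892967 and 15226952 in the sham samples. Levels are given as CPM, counts scaled to a common library size with TMM factors, and a floor of 3 counts lay at 0.207 to 0.468 CPM and reflects counting error alone. Gene lengths were not used here, so levels are compared between samples and not between genes. PRATA replicate 3 and sham replicate 1 stood apart from the other samples in the copies counted for some repeated RNA genes, among them 7SL and 5S rRNA. This did not follow the operation. The Pearson r of log2 CPM between these samples was 0.95, the same as between sham replicates 1 and 3, so they were not a separate pair by that measure. Of the counts on 29 genes for 7SL, the RNA of the signal recognition particle, 91.6% to 93.1% fell on 1 copy in the other 4 samples, but 12.8% in PRATA replicate 3 and 7.92% in sham replicate 1. Results are therefore given over all 6 samples, over the 4 samples of the main 7SL copy and for the remaining pair. Sham replicate 2, which stays among the 4 samples, was unusual in another way. It had the fewest counts and the highest TMM factor, 1.096. Yet the most genes were detected in it, 23168 against 18956 to 20672 in the other samples. In such bulk samples, fewer cells of a type and less RNA per cell cannot be told apart.

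All 10 genes had a positive log2 fold change of PRATA over sham, where 52.0% of all genes tested did, and their median was 0.79 against 0.02 for all genes tested. Apart from Npas4, the genes largely rose and fell together over the samples, as given below, so these are not 10 separate results. In edgeR's quasi-likelihood test, 2 of the 10, Nr4a1 and Btg2, were higher at an unadjusted p under 0.05, beside 8.19% of all genes tested, and none was lower, beside 10.1%. Only Nr4a1 among the 10 also passed a log2 fold change of 1, beside 1.17% of genes, while 3.23% of genes were lower past the same limits. At an adjusted p under 0.05, edgeR called 0 of the 10, and 0.00% of all genes. DESeq2 gave 9 of the 10 an adjusted p (Npas4 had none) and called 0 of these, where it called 728 genes (6.23%) in all. At an unadjusted p under 0.05, DESeq2 placed 3 of the 10 higher, beside 7.48% of genes. Limma voom with sample quality weights called 0 of the 10 at that adjusted p, against 1173 genes (7.86%) in all, and placed 4 of them higher at the unadjusted p, beside 15.6%. The PRATA and sham samples failed to overlap for 1 of the 10, Npas4, beside 11.6% of all genes that were higher in every PRATA sample.

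**Figure D1:**
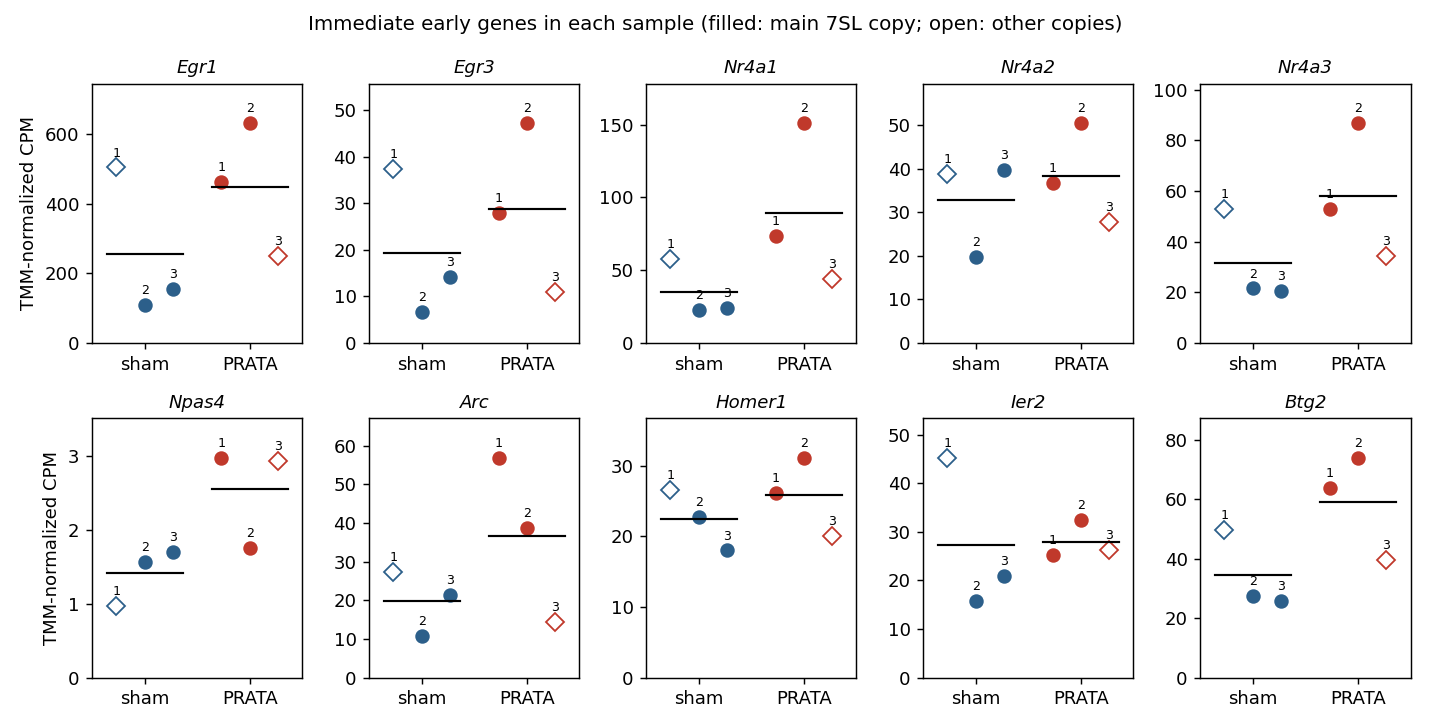
TMM-normalized CPM of the 10 immediate early genes in each sample, with each panel on its own linear scale from 0, points numbered by replicate and the bar at the group mean of 3. Open diamonds mark PRATA replicate 3 and sham replicate 1, which differed in the 7SL copy, and sham replicate 1 is the highest sham sample in 8 of 10 panels while PRATA replicate 3 is the lowest PRATA sample in 8 of 10.

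The EGR genes encode zinc finger transcription factors that carry a stimulus on to later target genes. Egr1 stood at 463, 631 and 250 CPM in PRATA replicates 1 to 3 and at 504, 108 and 154 CPM in sham replicates 1 to 3. Sham replicate 1 was 3.84 times the mean of the other sham samples and above PRATA replicates 1 and 3, so the groups overlapped. The means were 448 ± 191 and 255 ± 216 CPM (SD, n = 3 each), and the log2 fold change was 0.81 (SE 0.58, edgeR adjusted p = 0.479). Its 95% confidence interval ran from -0.53 to 2.14. In the 4 samples of the main 7SL copy the log2 fold change was 2.05 (SE 0.32, edgeR adjusted p = 0.0869).

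Egr3, a relative that binds the same DNA element, had nearly the same order of samples. Its level was 27.9, 47.2 and 11 CPM after PRATA and 37.3, 6.71 and 14.1 CPM after sham, with sham replicate 1 at 3.59 times the mean of the other sham samples. PRATA replicate 3 lay below sham replicates 1 and 3, and the ranges of the groups overlapped widely. The log2 fold change was 0.55 (95% confidence interval -0.96 to 2.05, edgeR adjusted p = 0.685) over 6 samples and 1.82 (0.86 to 2.79, adjusted p = 0.177) over 4. Between the PRATA and sham samples left out of the latter, Egr3 was lower after PRATA by a log2 difference of -1.76, the widest such gap among the 10 genes.

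The NR4A genes encode orphan nuclear receptors whose activity is set mainly by how much of each is made. Nr4a1 was at 73.6, 151 and 44.1 CPM in the PRATA samples and at 57.8, 22.8 and 23.9 CPM in the sham samples. PRATA replicates 1 and 2 lay above every sham sample, and PRATA replicate 3 lay between sham replicate 1 and the others. The mean was 89.6 ± 55.3 CPM after PRATA and 34.8 ± 19.9 CPM after sham, a log2 fold change of 1.36 (SE 0.51, 95% confidence interval 0.18 to 2.53). This was the highest among the 10 genes (edgeR adjusted p = 0.229), and the exact permutation test gave p = 0.2, where 3 samples against 3 cannot go below 0.1. Without PRATA replicate 2 its log2 fold change was 0.75 (edgeR adjusted p = 0.441), and over the 4 samples it was 2.26 (SE 0.36, adjusted p = 0.0869).

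Nr4a3 lay at 52.8, 86.8 and 34.4 CPM after PRATA and at 52.9, 21.5 and 20.4 CPM after sham. Sham replicate 1 was level with PRATA replicate 1 and was above PRATA replicate 3, while the other sham samples were below all PRATA samples. The log2 fold change was 0.87 (SE 0.45, edgeR adjusted p = 0.334) over 6 samples and 1.73 (SE 0.30, adjusted p = 0.0999) over 4. Nr4a2, a receptor that also maintains some neuron types, differed less. It was at 36.7, 50.4 and 27.8 CPM after PRATA and at 38.8, 19.7 and 39.7 CPM after sham, with both ranges largely shared. Its log2 fold change was 0.22 over 6 samples (95% confidence interval -0.51 to 0.95, edgeR adjusted p = 0.743) and 0.53 over 4 (-0.31 to 1.37, adjusted p = 0.584). Nr4a2 was the only member whose groups still overlapped among the 4 samples.

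Npas4 encodes a transcription factor that is largely restricted to neurons and responds to calcium entry. It had few reads, with 23, 22 and 37 counts after PRATA and 14, 10 and 18 counts after sham, all above 3 counts. Levels were 2.97, 1.75 and 2.93 CPM after PRATA and 0.967, 1.56 and 1.70 CPM after sham. Every PRATA sample was above every sham sample, but PRATA replicate 2 and sham replicate 3 were almost level. The log2 fold change was 0.86 (95% confidence interval -0.15 to 1.89, edgeR adjusted p = 0.331), and the exact permutation test gave p = 0.1, the smallest it can give. The difference did not lie in the same samples as for the other members, being 1.60 on the log2 scale between PRATA replicate 3 and sham replicate 1 and 0.50 in the other 4 samples (SE 0.62, edgeR adjusted p = 0.78).

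Arc and Homer1 encode synaptic proteins: ARC binds the endocytic machinery that removes AMPA receptors, and HOMER1 ties metabotropic glutamate receptors to intracellular calcium stores. Arc, whose protein the study stained, was at 56.8, 38.7 and 14.4 CPM after PRATA and at 27.4, 10.8 and 21.3 CPM after sham. PRATA replicates 1 and 2 were above all sham samples, whereas PRATA replicate 3 was below sham replicates 1 and 3. The mean was 36.6 ± 21.3 CPM against 19.8 ± 8.43 CPM, with a log2 fold change of 0.87 (SE 0.50, 95% confidence interval -0.28 to 2.01, edgeR adjusted p = 0.382). Over the 4 samples it was 1.54 (SE 0.37, adjusted p = 0.183). Calca encodes the precursor of the vasodilator peptide CGRP, which the study stained together with ARC. It was at 604 ± 88.1 CPM after PRATA and 334 ± 95.5 CPM after sham (log2 fold change 0.85, edgeR adjusted p = 0.175). Its groups did not overlap, and it was higher in PRATA replicate 3 than in sham replicate 1 by 1.27 on the log2 scale, where Arc differed by -0.93.

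Homer1 varied least. It stood at 26.2, 31.1 and 20.1 CPM after PRATA and at 26.6, 22.8 and 18 CPM after sham, and the groups shared most of their range. The log2 fold change was 0.20 over 6 samples (95% confidence interval -0.33 to 0.72, edgeR adjusted p = 0.678) and 0.49 over 4 (-0.11 to 1.09, adjusted p = 0.476). Activity induces a short Homer1 transcript, and counts per gene do not separate it from the long forms that neurons make at rest.

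Ier2 and Btg2 are induced early in many cell types. Btg2 encodes an antiproliferative protein that binds the CNOT7 and CNOT8 deadenylases. Its level was 63.9, 73.9 and 39.6 CPM after PRATA and 49.8, 27.6 and 25.9 CPM after sham, with PRATA replicate 3 below sham replicate 1 but above the other sham samples. The mean was 59.2 ± 17.6 against 34.4 ± 13.3 CPM, with a log2 fold change of 0.77 (SE 0.32, 95% confidence interval 0.03 to 1.52, edgeR adjusted p = 0.257). Leaving out any of PRATA replicates 1 and 2 or sham replicates 2 and 3 took its unadjusted p above 0.05. In the 4 samples the log2 fold change was 1.36 (SE 0.23, adjusted p = 0.0999). Ier2, a nuclear regulator of transcription, was at 25.2, 32.4 and 26.3 CPM after PRATA and at 45.2, 15.8 and 20.9 CPM after sham. The 3 PRATA samples lay between the lowest and the highest sham sample, and the log2 fold change was 0.03 (95% confidence interval -0.81 to 0.87, edgeR adjusted p = 0.977). In the 4 samples it was 0.64 (-0.02 to 1.3, adjusted p = 0.399).

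The order of the samples was shared by most of the genes. PRATA replicate 2 was the highest PRATA sample for 8 of the 10 and for 31.7% of all genes tested, and PRATA replicate 3 was the lowest for 8 of the 10 and for 31.2%. Sham replicate 1 was the highest sham sample for 8 of the 10, against 34.4% of all genes. It exceeded PRATA replicate 1 for 6 of the 10 genes, PRATA replicate 2 for 1 and the PRATA mean for 5. PRATA replicate 3 was above sham replicate 1 for 1 of the 10, Npas4, against 50.8% of all genes.

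Among the 4 samples of the main 7SL copy, all 10 genes were again higher on average after PRATA, as 50.9% of the 14808 genes tested there were, and their median log2 fold change was 1.45 against 0.01. At an unadjusted p under 0.05, 6 of the 10 (Egr1, Egr3, Nr4a1, Nr4a3, Arc and Btg2) were higher in edgeR, beside 5.98% of genes, and the same 6 passed a log2 fold change of 1, beside 2.84%. Both PRATA samples were above both sham samples for 9 of the 10, beside 23.2% of genes. None of the 10 reached an adjusted p under 0.05 there, which 13 genes (0.0878%) did. With 2 samples against 2, an exact permutation test cannot give a p under 0.333. Sham replicate 1, the highest sham sample for 8 of the 10, and PRATA replicate 3, the lowest PRATA sample for 8, were left out. The wider differences over the 4 samples follow from which samples were left out and are not separate support for a difference.

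**Figure D2:**
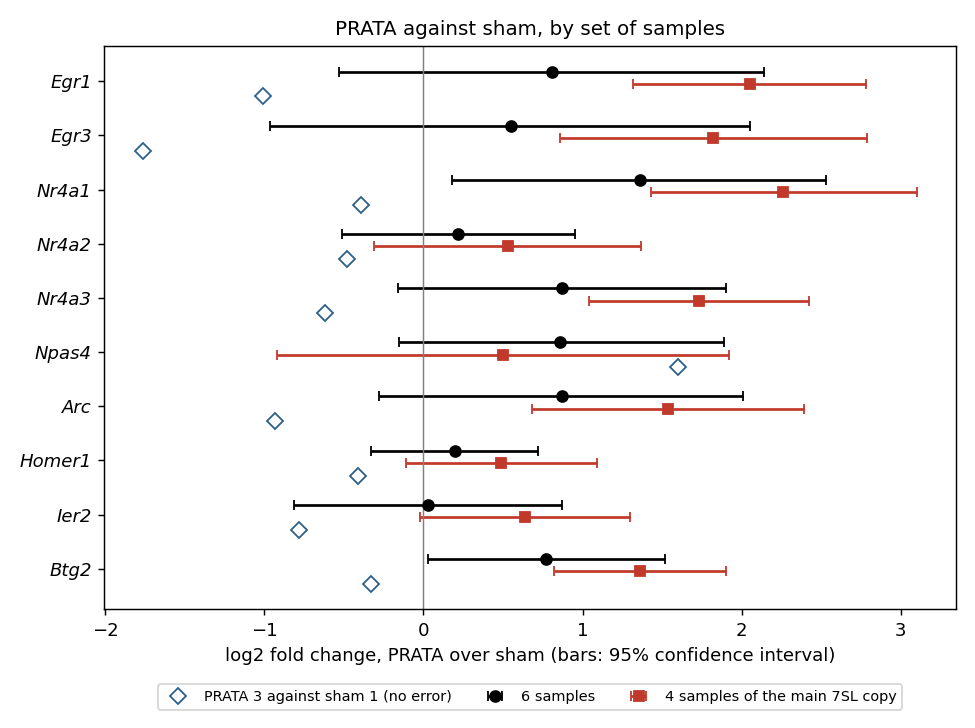
Log2 fold change of PRATA over sham for each gene over all 6 samples (black circles), over the 4 samples of the main 7SL copy (red squares) and between PRATA replicate 3 and sham replicate 1 (open diamonds, a single pair with no error). Bars are 95% confidence intervals from edgeR, and the diamonds lie below 0 for 9 of the 10 genes, with Npas4 at 1.60 as the exception.

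The difference between the 4 samples and the pair was tested as an interaction of the operation with the 7SL split, in an edgeR fit that leaves 2 residual degrees of freedom. The pair has no replicate, so the spread in this test came from the 4 samples alone, and the test was added after the order of the samples had been seen. It had an unadjusted p under 0.05 for 7 of the 10 genes, beside 6.27% of all genes tested in both directions. The interaction was -3.07 for Egr1 (edgeR adjusted p = 0.296) and -3.6 for Egr3 (adjusted p = 0.328) on the log2 scale. No gene of the table reached an adjusted p under 0.05 for it, so it shows no more than the order of the samples given above. The pair holds 1 sample of each operation, so a difference between these samples and a property of the split that 7SL marks cannot be told apart. With the split as a covariate over all 6 samples, the log2 fold change of Nr4a1 was 1.42 (edgeR adjusted p = 0.264) and that of Btg2 0.80 (adjusted p = 0.284), both within 0.1 of the values without it. Of the 10 genes, 4 moved by more than 0.1: Egr1 from 0.81 to 1.12, Egr3 from 0.55 to 0.72, Ier2 from 0.03 to 0.17 and Arc from 0.87 to 0.76. None of these 4 came to an unadjusted p under 0.05.

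Leaving out each sample in turn moved the median log2 fold change of the 10 genes from 0.79 to between 0.47, without PRATA replicate 2, and 1.14, without sham replicate 1. Nr4a1 and Btg2 stayed above 0 each time, whereas Egr3, Nr4a2 and Ier2 came to lie at or below 0 without PRATA replicate 2.

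**Figure D3:**
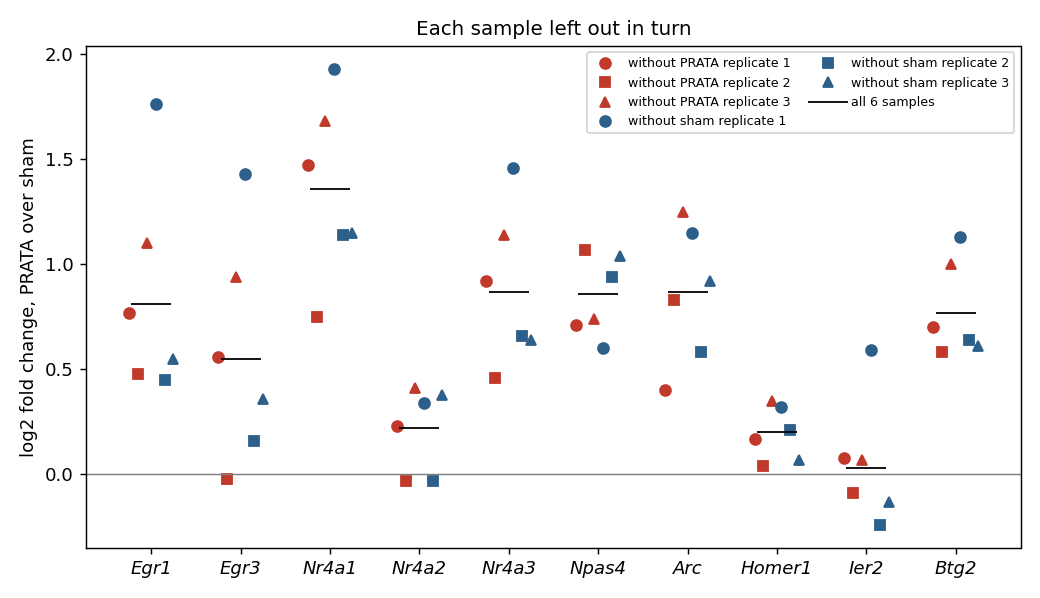
Log2 fold change of PRATA over sham after leaving out each sample in turn (red, a PRATA sample; blue, a sham sample), with the black line at the value over all 6 samples. Without sham replicate 1 the value for Egr1 is 1.76, and without PRATA replicate 2 it is 0.48.

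Across the 6 samples, most of the genes went up and down together. Of 45 pairs, 19 had a Pearson r of log2 CPM above 0.8, the median r was 0.76 and 5 were negative, all of them with Npas4. These are descriptions over 6 points that share library depth and sample quality. The closest pair was Nr4a1 with Nr4a3 at r = 0.985, followed by Nr4a3 with Btg2 at 0.979 and Nr4a1 with Btg2 at 0.973. The median r with the other members was 0.89 for Nr4a3, 0.85 for each of Egr1, Egr3, Nr4a1 and Btg2, 0.76 for Homer1, 0.75 for Arc, 0.67 for Nr4a2 and Ier2, and -0.01 for Npas4. Npas4 and the other members therefore ranked the samples differently. The mean of the standardised member levels was 0.62, 1.02 and -0.27 SD units in PRATA replicates 1 to 3 and 0.39, -1.09 and -0.66 in sham replicates 1 to 3.

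Among 8921 other protein-coding genes with a mean of at least 10 CPM, those whose log2 CPM followed this mean profile most closely over the 6 samples were Jmjd1c (r = 0.998), Brwd3 (0.996), Ripk1 (0.984), Nfil3 (0.982) and Phc2 (0.979). Jmjd1c belongs to a family of histone demethylases, Brwd3 encodes a bromodomain protein, Ripk1 a kinase of cell death and inflammation, Nfil3 a basic leucine zipper repressor and Phc2 a Polycomb protein. Their log2 fold changes of PRATA over sham were smaller than that of Nr4a1, from 0.41 for Phc2 to 0.88 for Nfil3, and none had an unadjusted p under 0.05 in edgeR. Nfil3 is also among the other rapid immediate early genes described below. These r values are the highest of 8921 over only 6 samples, so they describe the profile and do not show a shared regulation.

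The AP-1 genes, whose products pair as FOS and JUN dimers and which the same signals induce, had log2 fold changes with a median of 0.95, and 5 of 8 were higher and 1 lower at an unadjusted p under 0.05, beside 8.19% and 10.1% of all genes. Fos was at 383 ± 88.4 CPM after PRATA and 130 ± 75.8 CPM after sham (log2 fold change 1.56, edgeR adjusted p = 0.167), with groups that did not overlap. Other rapid immediate early genes were listed with 35 names, of which 32 were tested. Of these, 21 were higher on average after PRATA, 4 higher and 2 lower at an unadjusted p under 0.05, at a median log2 fold change of 0.24. Of all genes, 8.19% were higher and 10.1% lower at that p. Over the 4 samples, 18 of the 32 were higher at that p and 1 lower, beside 5.98% and 6.90% of genes, with a median of 0.80. Over all 6 samples, the 3 smallest p values of the list belonged to the kinase gene Plk3 (log2 fold change 0.79, edgeR adjusted p = 0.169), the stress gene Gadd45g (0.96, adjusted p = 0.171) and Ier5l (-0.98, adjusted p = 0.188).

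Genes of the slower wave are induced after the first wave and partly by it. Of 17 delayed activity-induced genes, 5 were higher and 1 lower at an unadjusted p under 0.05, beside 8.19% and 10.1% of all genes, with a median log2 fold change of 0.18. Vgf, a neuropeptide precursor, was at 172, 183 and 212 CPM after PRATA and at 81.7, 104 and 79.8 CPM after sham. All PRATA samples were well above all sham samples, with a log2 fold change of 1.10 (SE 0.18, edgeR adjusted p = 0.156). Bdnf, a neurotrophin that NPAS4 and CREB can induce, was at 50.9, 38.3 and 47.3 CPM after PRATA and at 24.7, 24.7 and 22.5 CPM after sham (log2 fold change 0.93, SE 0.18, edgeR adjusted p = 0.156). The synaptic pentraxin gene Nptx2 was higher by 0.76 on the log2 scale (edgeR adjusted p = 0.175). Between PRATA replicate 3 and sham replicate 1, Vgf was higher by 1.38, Bdnf by 0.94 and Nptx2 by 1.26 on the log2 scale. These are the 3 genes of smallest p in the list, and of all 17 genes 9 were lower and 8 higher in PRATA replicate 3 than in sham replicate 1.

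The kinases, channels and transcription factors upstream of immediate early genes had log2 fold changes centred on a median of 0.09, where 2 of the 35 tested were higher and 3 lower at an unadjusted p under 0.05, neither share above the 8.19% and 10.1% of all genes. The 3 genes of smallest p are named. The CREB family gene Atf1 was at 18.7 ± 1.01 CPM after PRATA and 34.8 ± 4.81 CPM after sham (log2 fold change -0.90, edgeR adjusted p = 0.156). Elk4, a partner of SRF on the CArG box, was lower by a log2 difference of -0.93 (edgeR adjusted p = 0.171). Cacna1c, the pore subunit of an L-type calcium channel, was higher by 0.57 on the log2 scale (edgeR adjusted p = 0.182). Partners of the member proteins, such as the NAB corepressors of EGR and the RXR partners of NR4A, had a median of -0.01, with 1 of 19 higher and 2 lower at that p, near the shares of all genes. Among them, the log2 fold change of Homer3 was -1.01 (edgeR adjusted p = 0.175), that of Homer2 0.49 (adjusted p = 0.269) and that of Prmt1, an arginine methyltransferase that binds BTG proteins, -0.49 (adjusted p = 0.196).

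**Figure D4:**
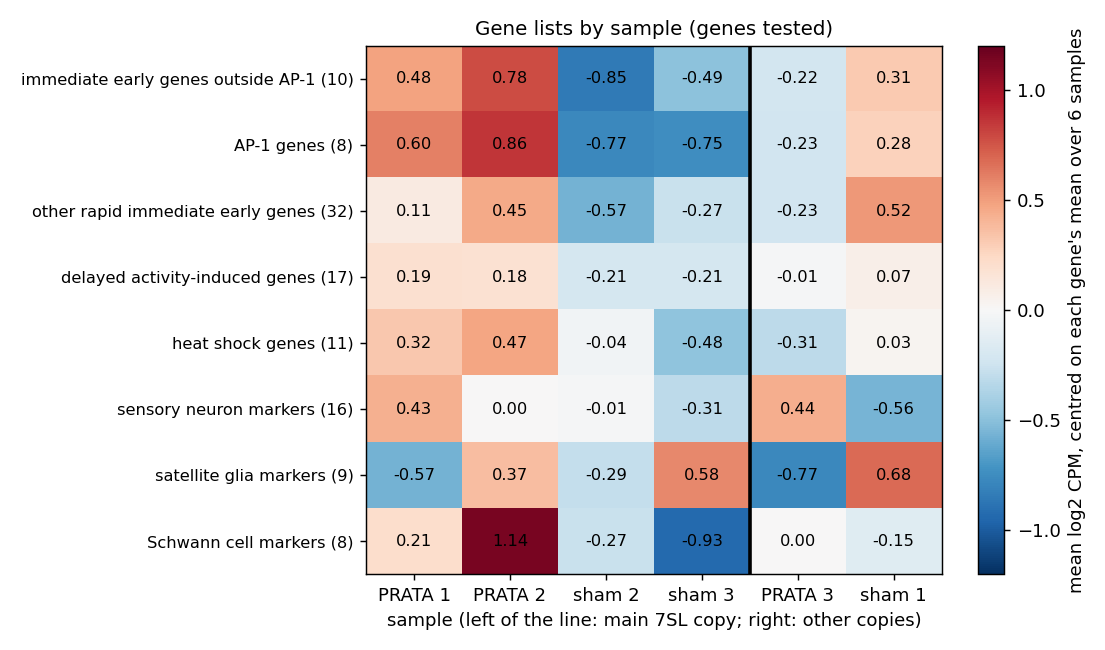
Mean log2 CPM of each gene list in each sample, centred on each gene's mean over the 6 samples, with the number of genes tested in parentheses and the samples of the main 7SL copy left of the line. The members stand at 0.48 and 0.78 in PRATA replicates 1 and 2, at -0.85 and -0.49 in sham replicates 2 and 3, at -0.22 in PRATA replicate 3 and at 0.31 in sham replicate 1.

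Heat shock genes, which digestion and warming of tissue can induce, were read as a measure of stress in the same samples. Of 11 tested, 1 was higher and 0 were lower at an unadjusted p under 0.05, beside 8.19% and 10.1% of all genes, with a median log2 fold change of 0.33. Over the 4 samples 5 were higher at that p, beside 5.98%. Their mean level, centred on each gene, was 0.32, 0.47 and -0.31 in PRATA replicates 1 to 3 and 0.03, -0.04 and -0.48 in sham replicates 1 to 3. The co-chaperone gene Dnajb1 was higher by 1.23 on the log2 scale (edgeR adjusted p = 0.168), while Hspb1 was at 0.67 (adjusted p = 0.334) and Hspd1 at -0.49 (adjusted p = 0.337). Their summed level ran from 9900 to 13400 CPM after PRATA and from 9010 to 11200 CPM after sham. This sum is weighted toward abundant genes such as Hsp90ab1, with means of 4370 CPM after PRATA and 4270 CPM after sham. Hspa1b varied more, at 1540, 2340 and 536 CPM after PRATA and at 1170, 807 and 228 CPM after sham (edgeR adjusted p = 0.437). Of the 11 genes, 8 were lower and 3 higher in PRATA replicate 3 than in sham replicate 1. The part of the heat shock response in the levels of the 10 immediate early genes was not tested.

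Markers of the labelled cells and of other ganglion cells also differed. All 16 sensory neuron markers were detected and higher on average after PRATA, 5 of them at an unadjusted p under 0.05, with a median log2 fold change of 0.52. Of all genes, 52.0% were higher on average, and 8.19% were higher and 10.1% lower at that p, and the marker counts that follow stand against the same shares. Their summed level ran from 13900 to 21300 CPM after PRATA and from 9680 to 14600 CPM after sham. Their centred mean was 0.44 in PRATA replicate 3 and -0.56 in sham replicate 1, the opposite order to that of the members. All 9 satellite glia markers were lower on average, 1 of them at that p, with a median of -0.58 and summed levels of 3260 to 6250 CPM after PRATA and 4390 to 8660 CPM after sham. Their centred mean was highest in sham replicate 1, at 0.68, and lowest in PRATA replicate 3, at -0.77.

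All 8 Schwann cell markers were higher on average after PRATA, 2 of them at an unadjusted p under 0.05, with a median log2 fold change of 0.97 and summed levels of 773 to 1380 CPM after PRATA and 582 to 777 CPM after sham. Ncmap, 1 of these 2, had only 7, 5 and 2 counts in sham replicates 1 to 3, around the floor of 3 counts. Like the members, the Schwann cell markers were highest in PRATA replicate 2, where their centred mean was 1.14. Macrophage markers (0.80) and heat shock genes (0.47) were also highest there. The Schwann cell markers stood at 0 in PRATA replicate 3 and at -0.15 in sham replicate 1, the opposite order to that of the members. The Schwann cell list holds Egr2, an EGR gene that Schwann cells need for myelin, with a log2 fold change of 0.05. Of 8 macrophage markers, 7 were higher on average and 1 passed that p, with a median of 0.71 and summed levels of 68.4 to 202 CPM after PRATA and 55.0 to 131 CPM after sham. Fibroblast markers had a median of -0.50, with 1 of 6 higher on average and 0 past that p in either direction, and their summed levels were 483 to 2530 CPM after PRATA and 1370 to 2520 CPM after sham. Endothelial markers had a median of 0.28, with 4 of 5 higher on average, 0 past that p and summed levels of 53.7 to 105 and 23.9 to 148 CPM. Markers of glia were thus present in every sample, and the part of cell makeup in the differences of the 10 genes was not tested.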

How the data were processed

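RNA of L1-L2 DRG neurons in 3 PRATA and 3 sham samples was analysed. The deposited values are raw whole-number counts per gene, made by the authors without normalization. The submitters' processing notes name STAR 2.7.3a, RSEM and DESeq2, and the study's methods name HISAT2, StringTie and Cuffdiff for FPKM values that were not used here. The counting step, its strand setting, the genome build and the annotation are not given in the sources used here. If RSEM made the counts, they were rounded, and reads shared by related genes were divided by estimate.

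Counts were analysed in R 4.3.3. Genes passing edgeR's filterByExpr (minimum count 10, minimum total 15) were scaled by TMM and compared with the two-sided quasi-likelihood test of edgeR 4.0.16, with p-values adjusted by Benjamini and Hochberg across the 14919 genes that passed, and each member's log2 CPM by an exact two-sided permutation test. Alternatives were other scaling and filters, DESeq2 1.42.0, limma 3.58.1 (trend with a pseudocount of 1, and voom), the replicate number as a block, each sample left out and the 4 samples alone, and the fits were tested on simulated data. Figures were drawn with matplotlib 3.10.9. The members, lists and splits were chosen with earlier results of these data known. Named genes were all members, the 3 genes of smallest p in the pathway lists, the 5 genes most like the member profile, and Calca. Hsp90ab1 and Hspa1b were named in addition, to show what the summed heat shock level holds. AP-1 genes were limited to 2 sentences, and of the cell-type markers Calca, Egr2 and Ncmap alone were named. The interaction with the 7SL split, and the split as a covariate, were added after seeing the data.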

Additional observations from a re-analysis of the deposited data

Results flagged for a closer look

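For 7 of the 10 genes, the interaction term of an edgeR fit, which sets the log2 difference of the pair that stood apart in 7SL copy (PRATA replicate 3 and sham replicate 1) against that of the other 4 samples, had an unadjusted p under 0.05. The pair is 1 sample against 1, so the 2 residual degrees of freedom come from the 4 samples alone. The test was chosen after the order of the samples had been seen, and no adjusted p was under 0.05, so a difference is not established. The pair's log2 difference minus that of the 4 samples was -3.6 for Egr3, -3.07 for Egr1, -2.66 for Nr4a1, -2.48 for Arc, -2.36 for Nr4a3, -1.7 for Btg2 and -1.43 for Ier2, each at an unadjusted p under 0.05. Their adjusted p values in edgeR ran from 0.296 for Egr1 to 0.6 for Ier2. For the other members, which did not pass, the term was -1.03 for Nr4a2, -0.9 for Homer1 and 1.08 for Npas4.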

How the results depend on the processing

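The members' directions held in most of 16 alternatives: of 160 gene values, 134 kept their direction and their side of an unadjusted p under 0.05, 13 kept the direction and came to pass it, 7 kept it and no longer passed, and 6 changed sign. Those were Egr3 (-0.02), Nr4a2 (-0.03) and Ier2 (-0.09) without PRATA replicate 2, Nr4a2 (-0.03) and Ier2 (-0.24) without sham replicate 2, and Ier2 (-0.13) without sham replicate 3. With each sample left out in turn, log2 fold changes ran from -0.02 to 1.43 for Egr3, from -0.03 to 0.41 for Nr4a2 and from -0.24 to 0.59 for Ier2, and those of Nr4a1 and Btg2 stayed positive, from 0.75 to 1.93 and from 0.58 to 1.13. The members past an unadjusted p under 0.05 ran from 0 to 5, and those also past a log2 fold change of 1 from 0 to 4. Both were 0 without PRATA replicate 2, sham replicate 2 or sham replicate 3, and reached 5 and 4 without sham replicate 1. Over all genes, the number higher past both limits was 165 without PRATA replicate 2, 361 without sham replicate 2 and 101 without sham replicate 3. It was 293 without sham replicate 1, against 175 over all 6 samples. No member reached an adjusted p under 0.05 in any alternative, with Npas4 left without one by DESeq2. Over the 4 samples of the main 7SL copy, 6 members passed either limit and their median was 1.45. In limma voom with sample quality weights, 4 passed the first limit and 3 both.

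Over all genes, the number higher past both limits was 101 to 361 with a sample left out, 421 in the 4 samples, 340 in voom and 84 in limma-trend, against 175 over all samples. The number lower was 1159 with no filter on low counts and 253 in limma-trend, against 482. At an adjusted p under 0.05 there were 0 genes, but 728 in DESeq2, 1173 in voom, 13 in the 4 samples and 0 to 721 with a sample left out, the highest without sham replicate 2. The causes were not tested.

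The labels do not say whether the replicate numbers pair the samples. Departures from the group means, taken per number, had r of -0.35, -0.05 and -0.35. With PRATA replicate 3 and sham replicate 1 standing apart from the rest, these values cannot decide it. With the replicate block, Nr4a1 had a log2 fold change of 1.29 and Btg2 of 0.79, 1 member passed both limits, 147 genes were higher and 372 lower, and no gene passed the adjusted p. Depth limited Npas4 most, which had 10 to 37 counts.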
